A study of Mus musculus with 2 samples.

Results

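The Ikaros family comprises 5 genes of zinc finger transcription factors, Ikzf1 (Ikaros), Ikzf2 (Helios), Ikzf3 (Aiolos), Ikzf4 (Eos) and Ikzf5 (Pegasus). They were chosen by gene name from the annotation of the array, as every gene probe that carries 1 of these names, which gave 11 probes for 5 of the 30069 gene names on the array. The rule itself uses names and no measured value. RNA of sorted mouse regulatory T (Treg) cells was hybridised to 2 single-colour Agilent arrays. On 1 array was a library from mice labelled Nr4a-deficient, also called Nr4a-TKO in the labels, and on the other a library from wild-type mice. Mice of both genotypes were 5 weeks old, and sorted cells of both were lysed directly. The Nr4a genes encode nuclear receptors that are induced by signals of the T cell receptor, and the comparison addresses how Treg cell transcripts differ without them. The deleted part of each gene, the cells it was deleted in, the sort markers and the number of animals per library were not stated in the sources used here.

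Ikaros family proteins bind DNA through zinc fingers near their N-terminus and pair with each other through zinc fingers near their C-terminus, so members of the family can form mixed dimers. In lymphocytes they recruit chromatin-remodelling and deacetylase complexes to genes that they repress or activate. Helios and Eos are well known in Treg cells, where Eos acts as a corepressor of the lineage factor Foxp3. Aiolos is best known from B cells and Ikaros from lymphocyte development at large, and Pegasus is the most distant member.

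Of the 11 probes, 2 lie over the zinc finger code itself. They are shown because they are the stretches in which the array reads 2 family members through nearly the same sequence. Both hold, in 1 reading frame, the spacing that starts a C2H2 zinc finger, with cysteine, 2 residues, cysteine, 12 residues and histidine, which 48 of 39429 gene probes of the array (0.122%) hold. The Ikzf1 probe covers chr11:11669493-11669552 (mm9, plus strand) and the Ikzf4 probe covers chr10:128071131-128071190 (mm9, minus strand). Capitals mark the bases at which the pair differs once the Ikzf4 probe is shifted by 1 base.
Ikzf1: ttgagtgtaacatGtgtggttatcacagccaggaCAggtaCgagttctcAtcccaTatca
Ikzf4: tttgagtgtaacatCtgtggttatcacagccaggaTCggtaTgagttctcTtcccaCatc
Over 59 overlapping bases, 53 were identical (89.8%). Counted from 1 at the 5′ end of the Ikzf1 probe, with the Ikzf1 base first, the differences were G14C, C35T, A36C, C41T, A50T and T56C. The longest identical run was 20 bases, against at most 9 bases between any other 2 of the 11 probes. How far transcripts of each gene bind the probe of the other was not tested.

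With 1 library per genotype there is no test, and no p-value appears. Intensities below are the processed signals of the scanner software, without a scale between arrays. Differences are log2 values, wild-type subtracted from the library labelled Nr4a-deficient, once each array had been divided by the 75th percentile of its gene probes. Each family probe was printed in 1 spot, so its error is that of the scanner software's error model, which was up to 14.5% of the signal for these probes. Variation from animal to animal or from sort to sort is not part of it. All 11 probes were well above background on both arrays. The probes of the targeted genes did not settle the labels. In the library labelled Nr4a-deficient, Nr4a1 was 1.82-fold higher and Nr4a2, at its brighter probe, 1.97-fold higher. Nr4a3 was well above background on neither array, with 22.3 in the library labelled Nr4a-deficient against 71.6 in wild-type over 10 spots. That is a difference of -1.47, in the direction of the label, at a dim level where single spot differences had an SD of 0.47. A probe outside the deleted part checks nothing, and each direction below rests on the label.

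Eos was the member that differed most. Ikzf4 was lower in the library labelled Nr4a-deficient at all 3 of its probes, and the other 4 genes lay within 2-fold at every probe. The brightest Ikzf4 probe, at base 3470 of the transcript, gave an intensity of 4283 ± 429 (scanner error) in the library labelled Nr4a-deficient, against 31789 ± 3179 in wild-type. That is 6.39-fold lower after scaling, a log2 difference of -2.68 ± 0.20 (scanner error). The probe at base 3387, which is separated from it by 23 bases, gave 3278 ± 328 and 25776 ± 2578, and it was 6.77-fold lower (-2.76 ± 0.20). These probes do not overlap and lie in separate areas of the array, and the gap between their differences was less than the scanner error.

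The third Ikzf4 probe, over the zinc finger code shown above, was dim. Its intensity was 119 ± 17.3 in the library labelled Nr4a-deficient, against 342 ± 38.5 in wild-type, which is 2.47-fold lower (-1.30 ± 0.27). It kept the direction of the bright probes with a smaller difference, and with a normexp background correction its value was -0.79, inside 2-fold. Its look-alike on Ikzf1 gave 382 ± 39.6 and 384 ± 41.2, with a difference of 0.21 ± 0.22.

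**Figure D1:**
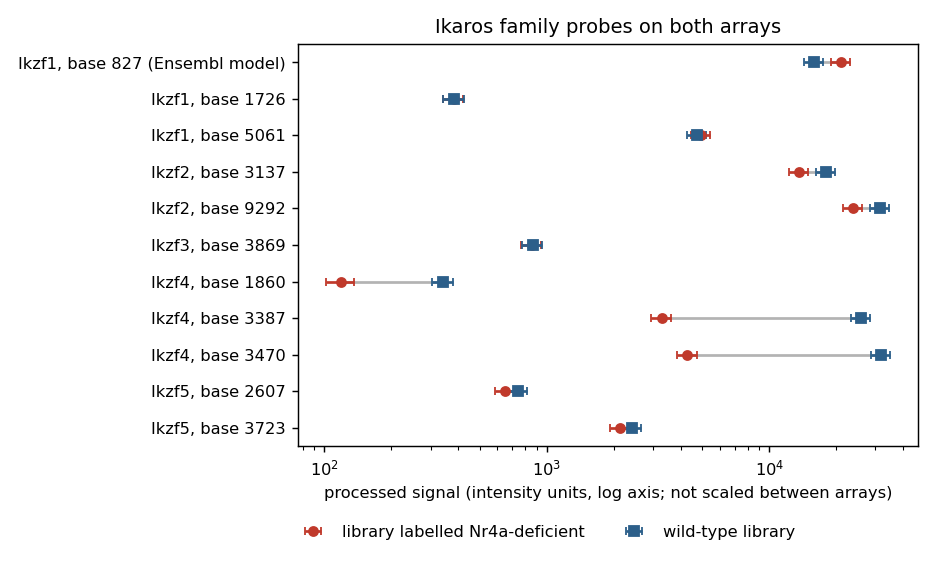
Processed signal of the 11 Ikaros family probes (log axis, intensity units) on the array of the library labelled Nr4a-deficient (circles) and the wild-type array (squares), by position on the transcript, with the scanner software's error as bars. The 3 Ikzf4 probes are the widest apart, with 4283 against 31789 at base 3470.

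Among the 18541 genes above background on at least 1 array, 4.94% were lower by 2-fold or more and 4.7% were higher by as much, so 48.8% of the changed genes were higher. Of the 5 family genes, 1 was at least 2-fold lower and none was higher. With the spike-in RNAs as the scale, 560 of all genes were higher and 1510 lower (27.1% higher). Of the 16298 genes above background on both arrays, 34 had a lower difference than Ikzf4 (0.209%). Probe by probe, 3 of 11 family probes were at least 2-fold lower, against 2.9% of the 21065 probes above background on both arrays, and these 3 probes belong to 1 gene. Of 774 genes with 3 or more such probes, 7 (0.904%) had all of them at least 2-fold lower, and Ikzf4 was 1 of these. Fewer cells that express a gene and less of its RNA per cell cannot be told apart in sorted bulk RNA.

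The range over the 3 Ikzf4 probes was 1.46, wider than in most genes with 3 probes, where the median was 0.24. Of 628 such genes, 9 (1.43%) had a wider range. The dim probe sets that range, since the bright probes lay at -2.76 and -2.68.

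**Figure D2:**
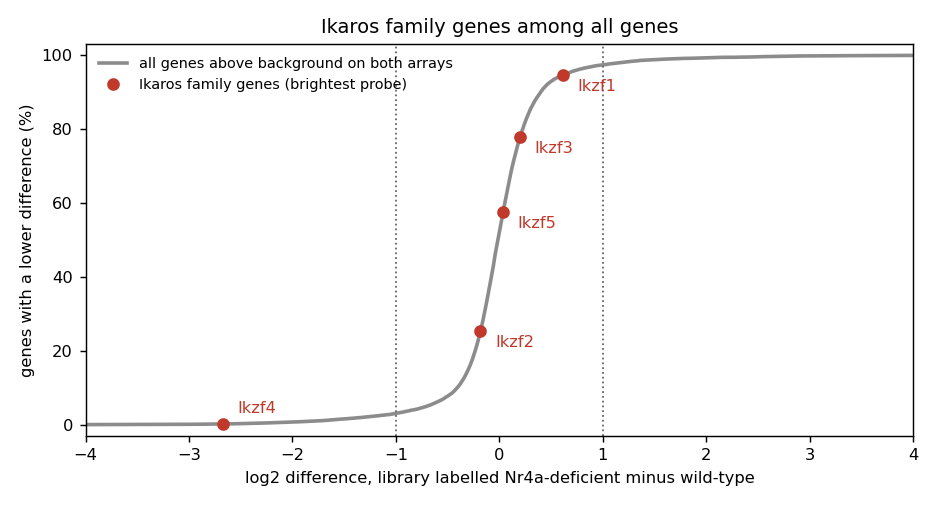
Share of genes with a lower log2 difference (vertical axis, percent) against the log2 difference (horizontal axis) over the 16298 genes above background on both arrays (line), with the 5 family genes as points at their brightest probe and dotted lines at 2-fold. Ikzf4 lies at the lower end (0.209%), and the other 4 lie between 25.4% and 94.6%.

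Helios was within 2-fold, with 25.4% of genes at a lower difference. The Ikzf2 probe at base 9292 gave 23816 ± 2382 in the library labelled Nr4a-deficient, against 31397 ± 3140 in wild-type, and the probe at base 3137 gave 13616 ± 1362 and 17954 ± 1796. Both differences were -0.18 ± 0.20, although the probes lie 6155 bases apart on the transcript. The level was lower in the library labelled Nr4a-deficient at both probes, by less than the scanner error. Between spots of 1 probe at this level, the SD of a difference was 0.044. Spots printed near the probes at bases 9292 and 3137 had median differences of -0.07 and -0.09. The Ikzf2 difference lay 2.49 above that of Ikzf4, a gap that no shift of the scale between arrays can change.

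Ikaros gave the highest value of the family, and its probes were not alike. The brightest Ikzf1 probe, designed on an Ensembl transcript model, gave 21005 ± 2101 in the library labelled Nr4a-deficient, against 15921 ± 1592 in wild-type, which is 1.53-fold higher (0.62 ± 0.20). The probe at base 5061 of the RefSeq transcript gave 4933 ± 493 and 4743 ± 475, with a difference of 0.27 ± 0.20, and the zinc finger probe lay at 0.21. The Ensembl model's probe therefore lay 0.34 and 0.41 above the other probes. Between spots of 1 probe on the same arrays, the SD of a difference was 0.044 at the level of the bright probes and 0.11 at that of the zinc finger probe. The range of 0.41 is common for the array, since 167 of 628 genes with 3 probes (26.6%) had a wider one.

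On mm9, the Ensembl model's probe lies at chr11:11661344-11661403, 8149 bases before the zinc finger probe in the direction of transcription, and the probe at base 5061 lies at chr11:11672828-11672887. Which exon lies under each probe was not analysed here, for want of an mm9 annotation. Further upstream on chromosome 11, from 11594704 to 11594763, a probe for the transcript named BC028789 gave 23370 and 17121, with a difference of 0.66. The other neighbours of Ikzf1 within 100000 bases did not go the same way throughout. Fignl1, an ATPase gene, lay at -0.79 and -0.40 at its probes, Ddc, the aromatic amino acid decarboxylase gene, at -1.60, and Gm12000, above background on 1 array, at a bound of 0.43. The median of the 5 neighbouring probes was -0.40. BC028789 was named with its value in view, and whether it is part of the Ikzf1 transcription unit was not tested.

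Aiolos and Pegasus differed by at most the scanner error. The single Ikzf3 probe gave 855 ± 86.3 in the library labelled Nr4a-deficient, against 864 ± 87.9 in wild-type, with a difference of 0.20 ± 0.21. The Ikzf5 probe at base 3723 gave 2133 ± 214 and 2417 ± 242 (0.04 ± 0.20), and that at base 2607 gave 650 ± 66.8 and 739 ± 77.2 (0.03 ± 0.21). No direction can be read from these probes, and the sign of each depends on the scale.

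In the order of the differences, Ikzf4 was followed by Ikzf2, Ikzf5, Ikzf3 and Ikzf1. The step from Ikzf4 to Ikzf2 was 2.49, against a combined scanner error of 0.29. The steps from Ikzf2 to Ikzf5 (0.22) and from Ikzf5 to Ikzf3 (0.17) were within that error. The step from Ikzf3 to Ikzf1 (0.41) exceeded it at the Ensembl model's probe, while the other Ikzf1 probes, at 0.21 and 0.27, lay next to Ikzf3. Levels of different probes are not set against each other here, because probes differ in their yield.

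The scale between arrays decides the sign of the small differences. After scaling, the added spike-in RNAs, of which 8 could be measured on both arrays, were 0.37 ± 0.057 (SD, n = 8) above their wild-type values, so every difference is 0.37 lower with them as the scale. The median of all genes above background on both arrays was -0.01 on the main scale and moves by that amount. On the spike-in scale, Ikzf3 lay at -0.17, Ikzf5 at -0.34 and the Ikzf1 probes at 0.24, -0.16 and -0.10, while Ikzf2 lay at -0.55 and Ikzf4 at -3.05. Over all 15 settings, Ikzf4 stayed between 4.74-fold and 8.27-fold lower, and Ikzf2 between -0.55 and -0.13.

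**Figure D3:**
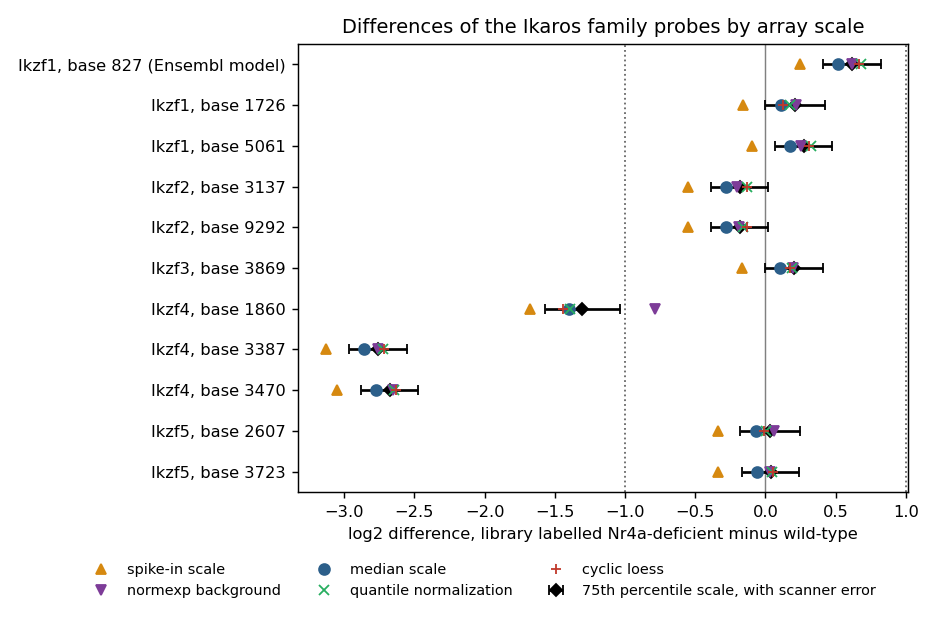
Log2 difference of each of the 11 family probes (horizontal axis) on the main scale (diamonds, with the scanner software's error as bars) and under 5 other ways to correct or scale the arrays (coloured marks); dotted lines mark 2-fold. The spike-in scale shifts all probes by 0.37 to the left, and the dim Ikzf4 probe at base 1860 is the one that crosses the 2-fold line, at -0.79 with normexp.

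Spots printed near the Ikzf4 probes lay close to 0. Within 5 rows and 5 columns of the Ikzf4 spots, the median difference of 56 to 67 other spots lay between -0.09 and -0.04. Around the other 8 family probes it lay between -0.09 and 0.03.

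The genomic neighbours of Ikzf4 did not share its difference either. Within 100000 bases of its probes on mm9, 15 probes of 10 other genes were above background on at least 1 array. On the main scale none of these probes was at least 2-fold lower and 1 was higher. Their median was 0.01. Suox, the sulphite oxidase gene, was the lowest of them at -0.79, with 6557 in the library labelled Nr4a-deficient, against 13159 in wild-type. Every difference is 0.37 lower on the spike-in scale, where Suox passes 2-fold. Rps26, a ribosomal protein gene whose probe lies 7221 bases away, lay at -0.23. The highest was Erbb3, a receptor tyrosine kinase gene, at a bound of 1.74, since it was above background in the library labelled Nr4a-deficient alone. The window was set by position, and the genes named within it were picked with their values in view.

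The partner genes of the family lay within 2-fold at their brightest probes. The partner list holds subunits of the NuRD, Sin3 and CtBP complexes, corepressors through which Ikaros proteins act, and beside them Smarca4 and Rest. It had 19 of 19 genes detected and none at least 2-fold higher or lower, with a median of 0.01. Ctbp1, the corepressor that Eos recruits, gave 42005 in the library labelled Nr4a-deficient, against 48104 in wild-type (0.02). Chd4, the helicase of NuRD, lay at 0.12. Hdac2 gave 121 and 166 (-0.24). Hdac1, the other NuRD deacetylase, lay at -0.44 at its brightest probe and reached 0.46 at another, so its probes disagreed in sign. Other probes of 2 genes of the list passed 2-fold, with Rbbp4 at -1.21 against -0.37 at its brightest probe, and Mta3 at 1.14 against 0.02. Ctbp2, with 169 and 287, was the lowest at -0.55 and Rest, a repressor of neuronal genes, the highest at 0.20. At the dim level of Ctbp2 and Hdac2, the SD of a spot difference was 0.47. On the spike-in scale the median of the list was -0.36.

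The list of Foxp3 and its partner factors had 12 of 12 genes detected and none past 2-fold, with a median of 0.01. Foxp3 itself gave 74.5 and 85.4, a difference of 0.02 at a level at which the SD of a spot difference was 0.47. Satb1, a chromatin organiser that Foxp3 represses, was the highest at 0.79, with 29501 in the library labelled Nr4a-deficient, against 19759 in wild-type. Gata1 was the lowest at -0.996, just inside 2-fold, with 3760 and 8713, and it passed 2-fold under the median scale, the spike-in scale and normexp, so that the list then had 1 gene lower. Gata1 is also a defining gene of red cell precursors. Of the 7 erythroid and platelet markers detected, Gata1 among them, 5 were at least 2-fold lower, and the part of such cells in the Gata1 value was not tested.

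The genes known to be repressed or controlled by Ikaros family factors held 1 gene past 2-fold in each direction. Of 13 genes, 10 were above background on at least 1 array, 1 of them higher and 1 lower by 2-fold or more, with a median of 0.15, against 4.7% higher and 4.94% lower over all genes. Il2, the T cell growth factor gene that Ikaros, Aiolos and Eos are known to repress, gave 92.9 in the library labelled Nr4a-deficient, against 217 in wild-type. It was 2.01-fold lower (-1.01), and spot differences at that level had an SD of 0.47, so its place past 2-fold lies within spot noise. It was inside 2-fold with normexp and with the 75th percentile of probes above background on both arrays. Notch3, a receptor of the Notch pathway, was above background in the library labelled Nr4a-deficient alone, with 260 against 21.5. Its bound on the main scale was 4.09-fold higher, or 2.03 in log2. That bound fell to 1.66 on the spike-in scale and to 1.42 with normexp. Ifng, the interferon gamma gene, lay at 0.10, or -0.27 on the spike-in scale. Igll1, Hes1 and Ptcra were not well above background on either array.

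Genes that act on Ikaros proteins themselves were all within 2-fold. This list holds the cereblon ubiquitin ligase, which lenalidomide-type drugs direct to Ikaros and Aiolos in human cells, casein kinase 2 and protein phosphatase 1. All 11 genes were detected, with a median of -0.04 and values from -0.22 (Rbx1, a ligase subunit) to 0.10 (Ppp1ca, a phosphatase subunit). Crbn, the cereblon gene, gave 2252 and 2492 (0.07).

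**Figure D4:**
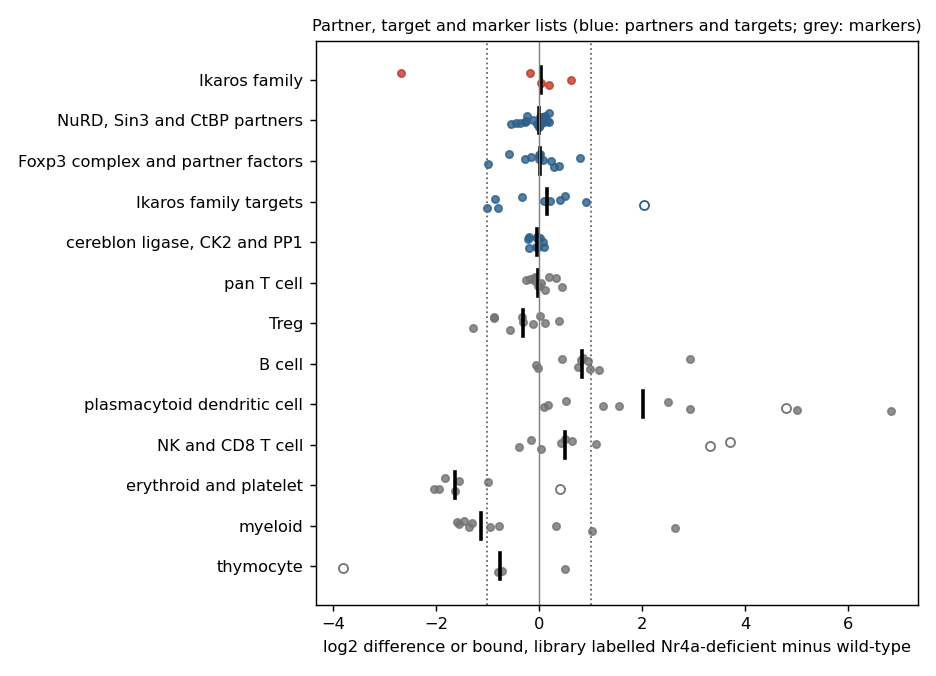
Log2 difference of single genes (points, horizontal axis) in the Ikaros family, 4 lists of partners and targets and 8 lists of cell type markers; open circles are bounds of genes above background on 1 array, bars are medians and dotted lines mark 2-fold. Ikzf4 lies at -2.68, below every point of the partner and target lists, and the plasmacytoid dendritic cell list has the highest median, 2.03. The lists were chosen with earlier results of these data known.

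Markers of T cells and of other cells give the setting of these values. Beside the counts below, 4.7% of all detected genes were at least 2-fold higher and 4.94% were at least 2-fold lower. All 12 pan T cell markers were detected and within 2-fold, with a median of -0.01, and their summed scaled signal was 487 in the library labelled Nr4a-deficient, against 484 in wild-type. All 10 Treg markers were detected, with 1 at least 2-fold lower and none higher, a median of -0.32 and a summed signal of 89.9 and 133. The brightest Ikzf4 probe, at -2.68, was lower than any of these Treg markers, whose lowest value was -1.27 at Il2ra, the IL-2 receptor alpha chain.

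Several markers of plasmacytoid dendritic cells, B cells and NK and CD8 T cells gave higher values in the library labelled Nr4a-deficient. Of 10 plasmacytoid dendritic cell markers, 7 were 2-fold or more higher and none was lower, and the list had a summed scaled signal of 129 against 99.3. This list, like the others, was chosen with earlier results of these data known, so the count can partly reflect that choice. At the brightest probes, Cox6a2 was the highest of the list at 6.83, followed by Cd209d and by Klk1, whose value is a bound. Bst2 was within 2-fold at 0.53. Siglech and Pacsin1 carry most of that sum and lay at 0.10 and 0.17 at their brightest probes. Without these genes the other 8 markers summed to 31.6 against 9.25. Siglech had 3 probes above background on at least 1 array, and they disagreed in size, with the highest at 6.63. Of 12 B cell markers, 10 were detected, of which 2 were 2-fold or more higher and none was lower, with a median of 0.83 and a summed signal of 15.4 against 8.75. Pax5 and Blk, which mark B cells, were not well above background on either array. Of 10 NK and CD8 T cell markers, 9 were detected and 3 were at least 2-fold higher, with a summed signal of 16.5 against 8.62. Without Nkg7 and Prf1, the other 7 summed to 2.57 against 1.66. Klrd1 and Klrk1, which were among the higher genes, were above background in the library labelled Nr4a-deficient alone. Eomes lay at -0.38 at its brightest probe and at -2.83 at another, and Gzma lay at -0.16. Ncr1 was on neither array well above background. The part of these cells in the values of the family genes was not tested.

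Several erythroid, myeloid and thymocyte markers were lower in the same library. Of 12 erythroid and platelet markers, 5 of the 7 detected were at least 2-fold lower, with a summed signal of 9.76 against 31.5. The platelet genes Pf4, Ppbp, Itga2b and Gp9 and the red cell factor Klf1 were not well above background on either array. The myeloid list had 5 of 10 genes lower and 2 higher, with a summed signal of 45.8 against 63.5. In the thymocyte list 4 of 7 genes were detected and 1 was at least 2-fold lower, with a summed signal of 4.06 against 6.82. The lower gene was Rag1, above background in wild-type alone, with 12.8 against 830 and a bound of -3.80. Without Cd1d1 and Dntt, the other 2 detected genes summed to 0.29 against 0.60. Rag2, Ptcra and Arpp21 were not well above background on either array. As above, the part of these cells in the values of the family genes was not tested.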

How the data were processed

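RNA of 2 sorted Treg cell libraries was measured on 1 Agilent array each. Each deposited scanner file gives the intensity of every spot, made with Agilent Feature Extraction 10.7.3.1, with spatial and multiplicative detrending within each array, per the file headers. No scaling between arrays is recorded there. The authors' deposited value table holds intensity values on a linear scale, not centred. Of its 39485 probes, 99.6% and 99.5% lay within 1% of the scanner value in the library labelled Nr4a-deficient and the wild-type library, and its column medians were 143.7 and 156.8. It served as an alternative.

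Gene spots with outlier flags were left out (173 and 209), and none was saturated. Processed signals were divided by the 75th percentile over gene probes (1762 and 2047) and taken to log2. The call "well above background" was required in more than 50% of a probe's spots (other 0 or 1 calls of the deposited files were used as given). Each gene is given by the brightest of its probes above background on at least 1 array, and a gene above background on 1 array has a bound against the higher of its own dim value and the lowest value with that call. Names were updated through RefSeq's table of GRCm38.p6, with 27184 probes matched on accession, 3566 on symbol and 562 on synonym. Coordinates come from the array design (mm9).

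The number of arrays limits the precision. Spot noise came from probes printed in several spots. Genes counted as higher or lower at 2-fold. The named genes were all probes of the family, the Nr4a genes, 8 fixed partner and target genes, and from each of 4 lists the genes past 2-fold and those at either end. Over 2 arrays, all genes with a difference of 1 sign have the same pattern, so none was named by likeness. Marker and neighbour genes outside this rule were picked with their values in view. The members and lists were chosen with earlier results of these data known. The calculation was tested on simulated data with the same noise at all levels and the same calls on both arrays. That test did not cover bounds or the larger noise of dim probes. Alternatives changed the scale, background correction, source, spots, detection call, filter, probe choice and fold. Python 3.11.15, R 4.3.3 and limma 3.58.1 were used.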

Additional observations from a re-analysis of the deposited data

How the results depend on the processing

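Ikzf4 stayed the 1 family gene at least 2-fold lower under all 14 alternatives, and no family gene was 2-fold higher. At 1.5-fold, 1 family gene (Ikzf1) was higher. The family had 5 probes below 0, and 10 on the spike-in scale. In the 4 partner and target lists together, 1 gene was lower, which became 0 with the 75th percentile of probes above background on both arrays, 2 with the median scale, with the weaker detection call (gIsPosAndSignif) or with no filter, and 4 with the spike-in scale or at 1.5-fold. With normexp the count stayed 1 but changed from Il2 to Gata1. The 1 higher gene became 0 when both arrays were required above background and 3 at 1.5-fold. Over all genes, the counts of 871 higher and 915 lower became 560 and 1510 with the spike-in scale, 432 and 499 with both arrays above background, 2059 and 1786 with the weaker call, 2059 and 1785 with no filter, and 1617 and 1610 at 1.5-fold. No paired analysis was possible because each genotype had 1 library, and for the same reason no library could be left out. Signal over background limits the dim probes, where the SD of a spot difference reached 0.47.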
